A study of Rattus norvegicus with 4 samples.

Results

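The mevalonate pathway was followed from acetyl-CoA to squalene through 9 enzymes, Acat2, Hmgcs1, Mvk, Pmvk, Mvd, Idi1, Fdps, Ggps1 and Fdft1, of the 13694 genes for which an annotated coding open reading frame (ORF) was listed. For each gene the ORF was chosen by its summed counts over all 4 libraries, the measured values on which the choice rested. The choice mattered only for Fdps, for which an ORF of 1260 nt with 3929 counts was taken over one of 2637 nt with 299 counts. The cells were neonatal rat ventricular cardiomyocytes of Sprague-Dawley rats at postnatal day 2, plated for 1 h beforehand to deplete other cells and kept in medium with serum. In the PE group, 2 libraries came from cells given phenylephrine, an α1-adrenergic agonist that makes cultured cardiomyocytes grow, at 20 µM for 24 h. In the control group, 2 libraries came from untreated cells. The readout was ribosome profiling, in which RNA fragments of 26 to 30 nt protected by ribosomes were sequenced and counted per ORF. Matched RNA-seq was not analysed here, so mRNA amount and translation of that mRNA cannot be told apart. As a bulk readout, it also does not separate fewer cells of a type from less RNA per cell.

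The pathway builds isoprenoids from acetyl-CoA. Acetyl-CoA is condensed to HMG-CoA and reduced to mevalonate, mevalonate is phosphorylated and decarboxylated to isopentenyl pyrophosphate, and isoprene units are joined to farnesyl pyrophosphate. Farnesyl pyrophosphate is a branch point: squalene synthase commits it to sterols, while geranylgeranyl pyrophosphate synthase lengthens it for the lipid anchors of small GTPases. When membrane sterol is low, the transcription factor SREBP-2 is released from the endoplasmic reticulum and, with NF-Y and Sp1, activates most genes of the route.

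Because genes of this route are known to share promoter elements, the stretch before the start site was examined for the 7 genes found in the RefSeq promoter table (build GRCr8); Pmvk and Fdft1 had no entry. The 250 bases before the start are shown for Mvk, which has the most NF-Y boxes, and for Fdps, which also holds a sterol element known from its promoter. They are also shown for Mvd and Ggps1, which like Mvk stood at the low end of the changes given below. Each is written 5′ to 3′ on the gene's strand. Capitals mark CCAAT, the NF-Y box, on either strand, and in Fdps also TCACACGAG.
Mvk (chr12:47819504-47819753, minus strand): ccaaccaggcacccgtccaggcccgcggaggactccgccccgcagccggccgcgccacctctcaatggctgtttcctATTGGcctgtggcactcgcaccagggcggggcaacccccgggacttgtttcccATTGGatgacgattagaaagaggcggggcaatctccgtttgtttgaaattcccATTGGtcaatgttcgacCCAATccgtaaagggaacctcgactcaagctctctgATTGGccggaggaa
Fdps (chr2:176804817-176805066, minus strand): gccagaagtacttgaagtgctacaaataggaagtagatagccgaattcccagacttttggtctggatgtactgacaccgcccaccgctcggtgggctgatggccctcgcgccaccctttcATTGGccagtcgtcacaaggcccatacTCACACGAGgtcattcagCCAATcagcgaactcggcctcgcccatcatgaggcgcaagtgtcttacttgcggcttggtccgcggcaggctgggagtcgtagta
Mvd (chr19:67414975-67415224, minus strand): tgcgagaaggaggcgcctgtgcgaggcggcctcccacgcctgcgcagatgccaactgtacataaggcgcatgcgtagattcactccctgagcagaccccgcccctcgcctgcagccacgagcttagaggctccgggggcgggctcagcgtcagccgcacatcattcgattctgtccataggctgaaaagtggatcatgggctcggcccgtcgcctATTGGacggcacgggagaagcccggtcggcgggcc
Ggps1 (chr17:55958500-55958749, plus strand): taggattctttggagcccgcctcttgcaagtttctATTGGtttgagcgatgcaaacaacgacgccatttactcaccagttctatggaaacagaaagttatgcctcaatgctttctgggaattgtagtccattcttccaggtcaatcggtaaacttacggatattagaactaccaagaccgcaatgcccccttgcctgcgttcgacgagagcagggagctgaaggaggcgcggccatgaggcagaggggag

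On both strands, CCAAT occurred at least once in 6 of the 7 windows, against 34.0% of 33469 promoter windows of the same length, and at least 2 times in 4 of the 7 (Hmgcs1, Mvk, Idi1 and Fdps), against 9.42%. Acat2 had none. In Mvk, 5 copies were found, of which 4 on the opposite strand began 53 bases apart, at -173, -120, -67 and -14 from the start. Single copies began at -215 in Ggps1 and at -35 in Mvd, and the copies in Idi1 lay at -66 and -35. GGGCGG, the GC box bound by Sp1, was present in 5 of the 7 windows, against 30.5%, and was missing from Idi1 and Ggps1. The classical sterol regulatory element, searched as TCACNCCAC, matched 0 of the 7 windows and 0.974% of all, and the E-box CACGTG matched 0 of the 7 and 5.59% of all. TCACACGAG matched Fdps alone among the 7, at -103 between its CCAAT copies, and 0.0986% of all windows. In these windows, 0 pairs of matches of different motifs shared a base. The motifs were chosen with the counts known, and a match is a description of letters in a window, not of binding.

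**Figure D1:**
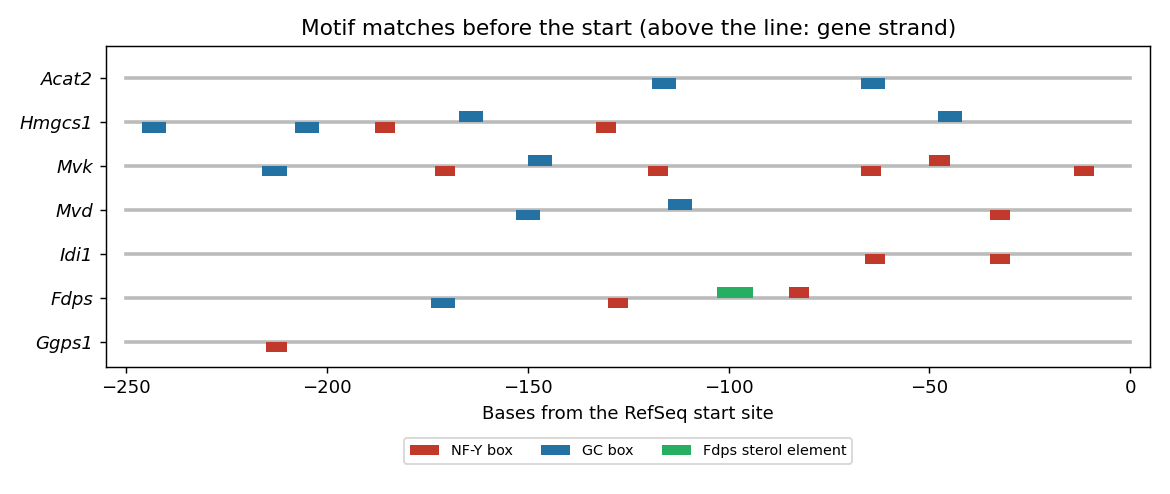
Positions of motif matches in the 250 bases before the RefSeq start site of 7 genes, in bases from the start; bars above the line lie on the gene's strand and bars below on the opposite strand. Mvk carries 5 NF-Y boxes, Ggps1 a single one at -215, Mvd a single one at -35, and Acat2 GC boxes only.

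Phenylephrine was followed by higher footprint counts on 8 of the 9 enzymes, from the first condensation through to squalene synthase, and the exception was Ggps1, on the branch away from sterols. All 9 ORFs passed the low-count filter. Of these, 8 were higher and 0 lower in PE when tested with edgeR (quasi-likelihood, p-values adjusted over 12609 ORFs by Benjamini-Hochberg, threshold 0.05), where 21.4% of all tested ORFs were higher and 21.3% lower. Of the 9, 6 were called and at least 2-fold higher, against 3.5% of tested ORFs, and the same number passed a test against a 1.5-fold change, against 3.64%. Both PE libraries lay above both control libraries for 8 of the 9, against 34.4% of tested ORFs, while 34.3% lay below. The median log2 fold change of the 9 was 1.44, beside 0.00038 over all tested ORFs. Together the 9 ORFs took 0.403% and 0.404% of all ORF counts in the PE libraries, against 0.141% and 0.135% in the control libraries.

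The first 2 steps make HMG-CoA. Acat2, the cytosolic acetoacetyl-CoA thiolase (Rnor_6.0 chromosome 1, 47972425 to 47991846, plus strand), had 143 and 144 CPM (TMM-scaled counts per 1000000 counts) in PE libraries, against 51.9 and 53.6 CPM in control libraries. It rose 2.71-fold (95% interval 2.52 to 2.92). Hmgcs1, the cytosolic HMG-CoA synthase (chromosome 2, 52436356 to 52443466, plus strand), had 2276 and 2316 CPM in PE libraries, against 772 and 732 CPM in control libraries. It rose 3.06-fold (edgeR adjusted p = 6.7e-34) and alone made up 55.8% and 56.2% of the summed CPM of the 9 ORFs in PE, against 55.6% and 55.1% in control. For both genes the groups were far apart compared with the distance between replicates.

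Acat2 has a listed copy, Acat2l1, which begins 4767 bases downstream on the same strand and encodes a protein identical to Acat2 at 369 of 397 residues, or 92.9%. Acat2l1 had 44.0 and 39.9 CPM in PE, against 15.9 and 13.6 CPM in control, and rose 2.86-fold. Reads of such near-identical copies may be split or dropped in counting, which was not tested. Acat2 held 0.382 counts for each P-site (the position of the ribosome's peptidyl site, pooled over libraries by the authors) and Acat2l1 0.150, where the median ORF with counts held 1.16. Summing the copies, an alternative added after seeing the data, gave a log2 fold change of 1.46, beside 1.44 for Acat2 alone. As Acat2l1 alone had 1.52, the sum had to lie near these values. It holds only counted reads and cannot show how dropped reads changed.

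The next 3 enzymes turn mevalonate into isopentenyl pyrophosphate. Mvk, mevalonate kinase (chromosome 12, 47904719 to 47919400, minus strand), had 19.0 and 20.8 CPM in PE libraries, against 12.3 and 11.3 CPM in control libraries, and rose 1.69-fold (95% interval 1.42 to 2.02; edgeR adjusted p = 7.0e-06). Pmvk, phosphomevalonate kinase (chromosome 2, 188784377 to 188793543, plus strand), had 60.8 and 60.1 CPM in PE libraries, against 25.1 and 24.3 CPM in control libraries, a 2.45-fold rise. Mvd, the decarboxylase (chromosome 19, 55259337 to 55268892, minus strand), had 59.3 and 59.7 CPM in PE libraries, against 38.3 and 32.7 CPM in control libraries, a 1.68-fold rise. The groups did not overlap for any of the 3, and Mvd averaged 59.5 ± 0.329 CPM in PE and 35.5 ± 3.95 CPM in control (SD, n = 2 each). Mvk and Mvd were the called enzymes that did not pass the test against a 1.5-fold change, with adjusted p of 0.24 and 0.058 in edgeR's glmTreat.

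Idi1, which isomerises isopentenyl to dimethylallyl pyrophosphate (chromosome 17, 57977991 to 57983800, minus strand), had 671 and 657 CPM in PE libraries, against 166 and 158 CPM in control libraries. It rose 4.10-fold (95% interval 3.93 to 4.27), and its log2 fold change of 2.04 stood at the 99.4th percentile of all tested ORFs. No other enzyme of the 9 reached that size.

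Fdps, which joins isoprene units to farnesyl pyrophosphate (chromosome 2, 188403647 to 188412329, minus strand), had 117 and 124.5 CPM in PE libraries, against 39.5 and 38.7 CPM in control libraries. It rose 3.08-fold, with a log2 fold change of 1.62 ± 0.06 (SE). Its counts are a small remainder of its footprints: 3929 counts stood beside 91646 P-sites, or 0.0429 counts per P-site. A longer ORF of 2637 nt is listed from the same start codon, and its protein shares the first 309 residues with the 420 of the chosen ORF. That longer ORF had 86 and 83 counts in PE, against 60 and 70 in control, with 77172 P-sites, a log2 fold change of 0.46 ± 0.20 (SE) and an edgeR adjusted p = 0.065. How the counting treated footprints on the shared stretch was not tested. Counts of both ORFs added together gave a log2 fold change of 1.53. An overlapping upstream ORF of 198 nt was listed for Fdps with 200 P-sites and 0 counts in every library.

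From farnesyl pyrophosphate the enzymes parted. Fdft1, squalene synthase, which commits the route to sterols (chromosome 15, 46341080 to 46367226, minus strand), had 709 and 716 CPM in PE libraries, against 259 and 255 CPM in control libraries, a 2.77-fold rise. Ggps1, which makes geranylgeranyl pyrophosphate (chromosome 17, 53963208 to 53967145, plus strand), had 25.8 and 23.7 CPM in PE libraries, against 24.7 and 23.2 CPM in control libraries. The groups overlapped, and the fold of 1.04 had a 95% interval of 0.897 to 1.20 (edgeR adjusted p = 0.73), which lies below the 1.51 at the lower end of the interval of Mvd. Over the 4 libraries Ggps1 had 1213 counts. An upstream ORF of 72 nt in Ggps1 had 7 and 18 counts in PE, against 13 and 12 in control, and its log2 fold change of 0.07 ± 0.51 (SE) did not pass.

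**Figure D2:**
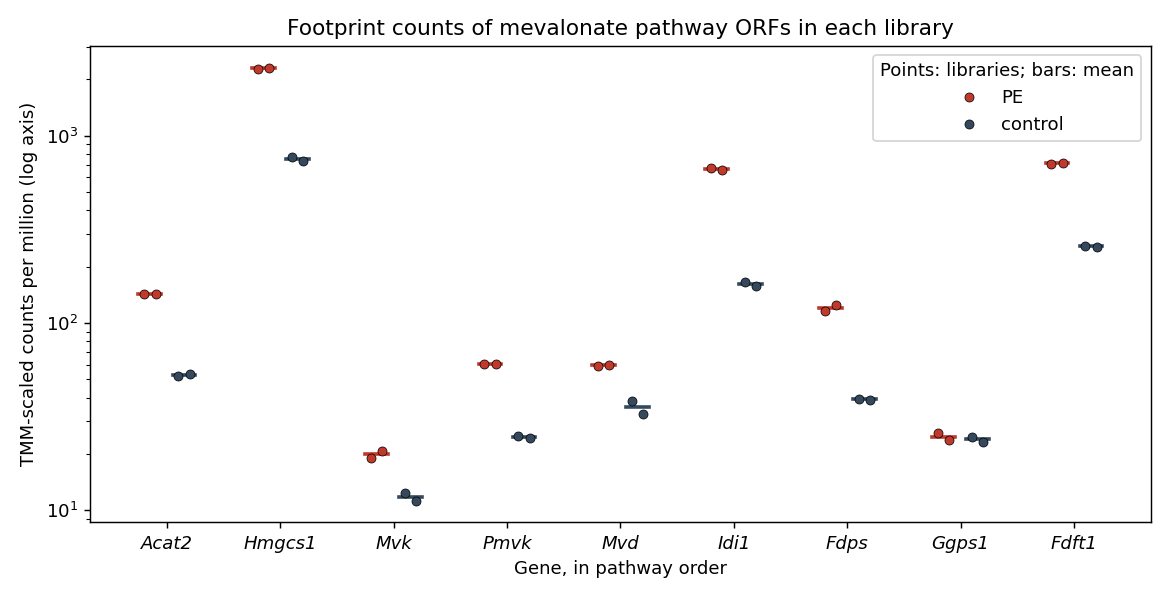
TMM-scaled CPM of the 9 enzymes in each library, on a log axis and in pathway order; points are libraries, bars group means, PE left of control. The PE points lie above the control points for every gene except Ggps1, where 25.8 and 23.7 CPM in PE overlap 24.7 and 23.2 CPM in control.

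The enzymes were then ordered by size of change. Differences between neighbours are on the log2 scale with 95% intervals that treat the errors of 2 ORFs as independent. They are a description with no test, since sorting on the same values makes each difference positive. Idi1 exceeded the next enzyme, Fdps, by 0.41 (0.27 to 0.55). Fdps and Hmgcs1 differed by 0.012 (-0.12 to 0.14) and Fdft1 and Acat2 by 0.032 (-0.086 to 0.15), which the data do not separate. Hmgcs1 exceeded Fdft1 by 0.14 (0.075 to 0.21). Pmvk lay below Acat2 by a like amount, 0.15, but with a wider interval (-0.045 to 0.34), and exceeded Mvk by 0.53 (0.23 to 0.83). Mvk and Mvd differed by 0.0074 (-0.29 to 0.31), and Mvd exceeded Ggps1 by 0.70 (0.44 to 0.96).

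**Figure D3:**
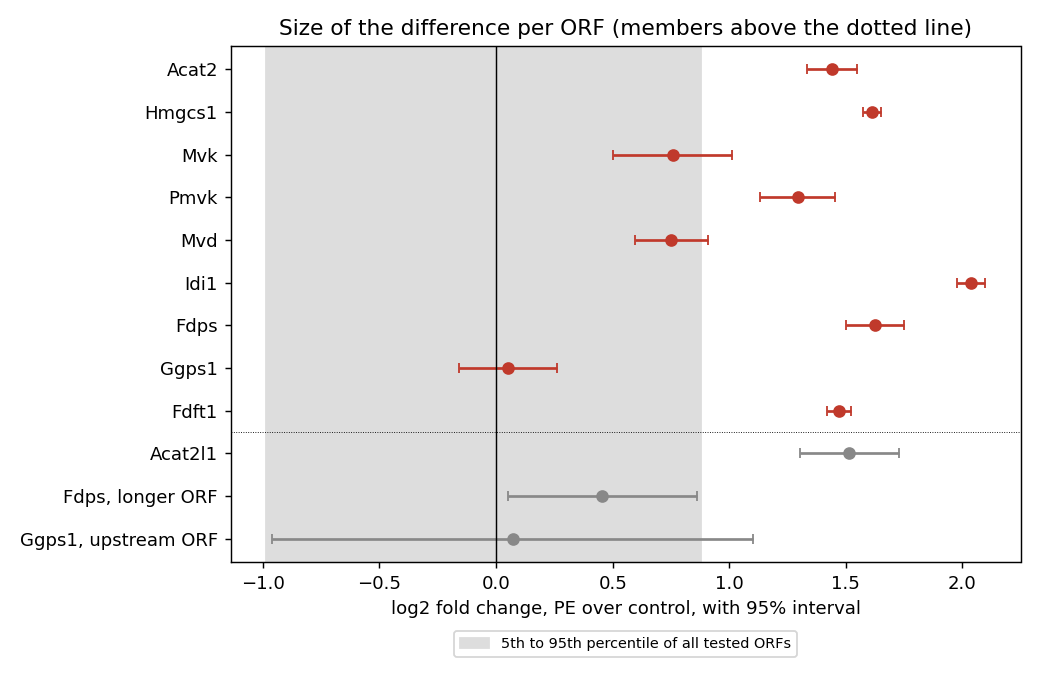
log2 fold change of PE over control with its 95% interval for the 9 enzymes, and below the dotted line for the Acat2 copy and the other tested ORFs of Fdps and Ggps1; the grey band spans the 5th to 95th percentile of all tested ORFs, -0.98 to 0.88. Idi1 lies highest at 2.04 and the interval of Ggps1 spans 0.

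Ratios of 2 enzymes within a library do not depend on scaling. The count of Ggps1 per count of Fdft1 was 0.0364 and 0.0332 in PE libraries, against 0.0954 and 0.0908 in control libraries. Idi1 per Mvd was 11.32 and 10.996 in PE libraries, against 4.33 and 4.84 in control libraries. Mvk per Hmgcs1 was 0.00834 and 0.00898 in PE libraries, against 0.0160 and 0.0154 in control libraries. Fdft1 per Fdps moved less, at 6.08 and 5.75 in PE, against 6.55 and 6.59 in control, and Hmgcs1 per Acat2 was 15.9 and 16.1 in PE, against 14.9 and 13.7 in control. Fdps and Acat2 held 0.0429 and 0.382 counts per P-site, against 1.18 for Fdft1 and Hmgcs1. Ratios with Fdps or Acat2 therefore do not give the relative footprint levels of the enzymes. By pooled P-sites Fdps stood above Fdft1, at 91646 against 20229. The groups did not overlap in any of the 9 ratios computed, which share enzymes and so are not separate observations. The share of ratios of other ORFs without overlap was not computed. Of single tested ORFs, 34.4% had both PE libraries above both control libraries and 34.3% had both below. A two-sided exact permutation test gave p = 0.333 for each ratio (0.333 after adjustment over the 9), the smallest value that 2 against 2 libraries allow.

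Levels were compared between enzymes per kilobase of ORF. In PE libraries the order was Hmgcs1 at 1472 ± 18.2 CPM per kilobase (SD, n = 2), Idi1 at 782 ± 11.9, Fdft1 at 571 ± 3.55, Acat2 at 120.2 ± 0.587, Pmvk at 104 ± 0.770, Fdps at 95.7 ± 4.43, Mvd at 49.5 ± 0.273, Ggps1 at 27.5 ± 1.65 and Mvk at 16.8 ± 1.09. In control libraries Hmgcs1 again led at 482 ± 18.0 CPM per kilobase, and Fdft1 at 206 ± 2.16 stood above Idi1 at 191.0 ± 6.10. In PE no neighbours in the order overlapped. In control, Fdps at 31.1 ± 0.452 and Mvd at 29.5 ± 3.29 overlapped, as did Mvd and Ggps1 at 26.6 ± 1.21. The highest level was 87.7 times the lowest in PE, against 48.4 times in control.

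The order depends on which deposited measure of footprints is used. By the authors' frame 0 P-sites in RPKM units (scaled to ORF length and sequencing depth), pooled over libraries, Fdps came first at 837 and Hmgcs1 second at 468, whereas by counts in control Fdps was in place 6. Acat2, at 124, was in place 5. The other 7 enzymes had 1.13 to 1.24 counts per P-site, and their order among themselves in PE was the same by both measures. In-frame P-sites made up 79.9% (Ggps1) to 85.8% (Mvd) of the P-sites of each enzyme, beside a median of 84.1% over annotated ORFs.

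**Figure D4:**
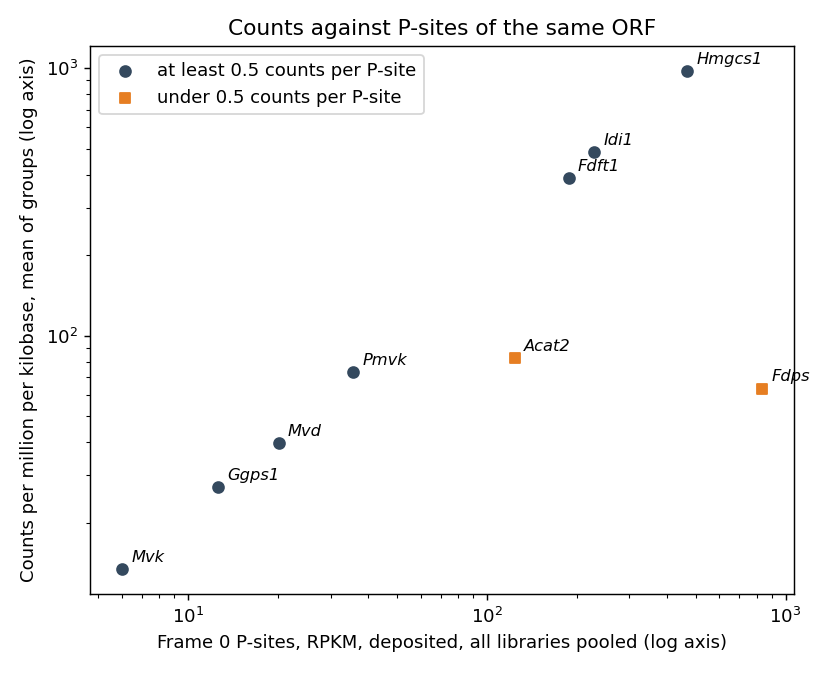
CPM per kilobase, averaged over the PE and control means, against the authors' frame 0 P-site RPKM pooled over libraries, both on log axes, for the 9 enzymes. Fdps and Acat2, drawn as squares, hold 0.0429 and 0.382 counts per P-site and lie below the line formed by the others.

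The genes sit on 6 chromosomes, with Hmgcs1, Pmvk and Fdps on chromosome 2 and Idi1 and Ggps1 on chromosome 17. Of the 18 nearest genes with a tested annotated ORF, 1 on each side of each enzyme, 3 were higher and 4 lower in PE, beside 21.4% and 21.3% of all tested ORFs. This comparison was chosen after the values were seen. The 3 higher neighbours were Acat2l1, Ctsb beside Fdft1, and Mmab beside Mvk. Mmab, an enzyme of vitamin B12 metabolism, is read away from Mvk on the opposite strand, and the start codons are 1370 bases apart. It had 20.1 and 19.2 CPM in PE libraries, against 8.87 and 7.92 CPM in control libraries, a 2.35-fold rise. Wdr37, which RefSeq places next to Idi1 and read away from it, had 24.7 and 26.2 CPM in PE libraries, against 24.2 and 24.6 CPM in control libraries, and did not pass (log2 fold change 0.06 ± 0.10, SE).

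Around the 9 enzymes, the later steps of sterol synthesis also rose. The counts in these lists stand beside 21.4% of all tested ORFs called higher, 21.3% called lower and 3.5% called at least 2-fold higher. All 11 tested genes of the late sterol list were higher (Lbr was not listed), with a median log2 fold change of 1.05. Cyp51, the lanosterol demethylase, rose 2.82-fold to 753 ± 1.30 CPM in PE, against 267 ± 11.2 CPM in control (SD, n = 2). Msmo1 and Sc5d, oxidising enzymes of sterol synthesis, rose 2.49-fold and 2.37-fold, and squalene epoxidase Sqle 2.10-fold. Of 20 tested genes of sterol sensing and transport, 10 were higher and 2 lower, with a median of 0.20. Insig1, an SREBP target that retains the SREBP escort Scap in the endoplasmic reticulum, rose 2.395-fold with 0.481 counts per P-site, Srebf2 itself 1.42-fold and the sterol exporter Abcg1 1.80-fold. Scap had a log2 fold change of -0.07 and did not pass. The exporter Abca1 and the lysosomal Npc1 fell by 0.25 and 0.16 on the log2 scale. Both calls were lost once the trend with ORF length was removed (log2 fold changes of -0.024 and -0.027), and that of Npc1 also by DESeq2 (-0.16, adjusted p = 0.15) and without PE replicate 2 (-0.13) or control replicate 1 (-0.14).

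The list of acetyl-CoA supply and mitochondrial counterparts was split, with 5 of 12 higher and 7 lower and a median of -0.30. Cytosolic acetyl-CoA synthetase Acss2 rose 2.59-fold, ATP-citrate lyase Acly 1.55-fold and the citrate carrier Slc25a1 1.77-fold. Bdh1, a mitochondrial ketone body dehydrogenase, rose 2.38-fold. Acat1, the mitochondrial thiolase, had 289 and 310.0 CPM in PE libraries, against 467 and 457 CPM in control libraries, 1.54-fold lower, while Acat2, identical to it at 43.1% of residues, rose. Hadhb, Hadha and Acaa2, which oxidise fatty acids, fell 1.499-fold, 1.41-fold and 1.67-fold.

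Of 21 tested enzymes that use the isoprenoids, 8 (38.1%) were higher and 1 (4.76%) lower, with a median of 0.15, against 21.4% and 21.3% of all tested ORFs. Of the 21, 0 were called at least 2-fold higher, against 3.5% of all. By DESeq2, 4 were higher and 0 lower. Rabggtb and Fnta, subunits of the Rab prenyl transferase and of the farnesyl transferase, rose 1.29-fold and 1.28-fold, Pdss1, which builds the ubiquinone tail, 1.49-fold, and Ptar1 1.23-fold. Pggt1b, a subunit of a geranylgeranyl transferase, had a log2 fold change of -0.05 and did not pass. Chm, a Rab escort protein, fell by 0.17, a call lost without any 1 of the 4 libraries, at log2 fold changes of -0.16 to -0.18. Of 19 tested prenylated small GTPases, 9 (47.4%) were higher and 2 (10.5%) lower, against the same 21.4% and 21.3%, with a median of 0.22, and 7 of the 19 had under 0.5 counts per P-site. Rala rose 1.56-fold, Rap1b 1.44-fold, Rab11a 1.35-fold and Rhoa 1.24-fold, while Rnd3 and Rhob fell by 0.16 and 0.19 on the log2 scale. DESeq2 made neither call, and that of Rnd3 was lost without PE replicate 2 (-0.11) and that of Rhob without any 1 of the 4 libraries (-0.15 to -0.23).

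**Figure D5:**
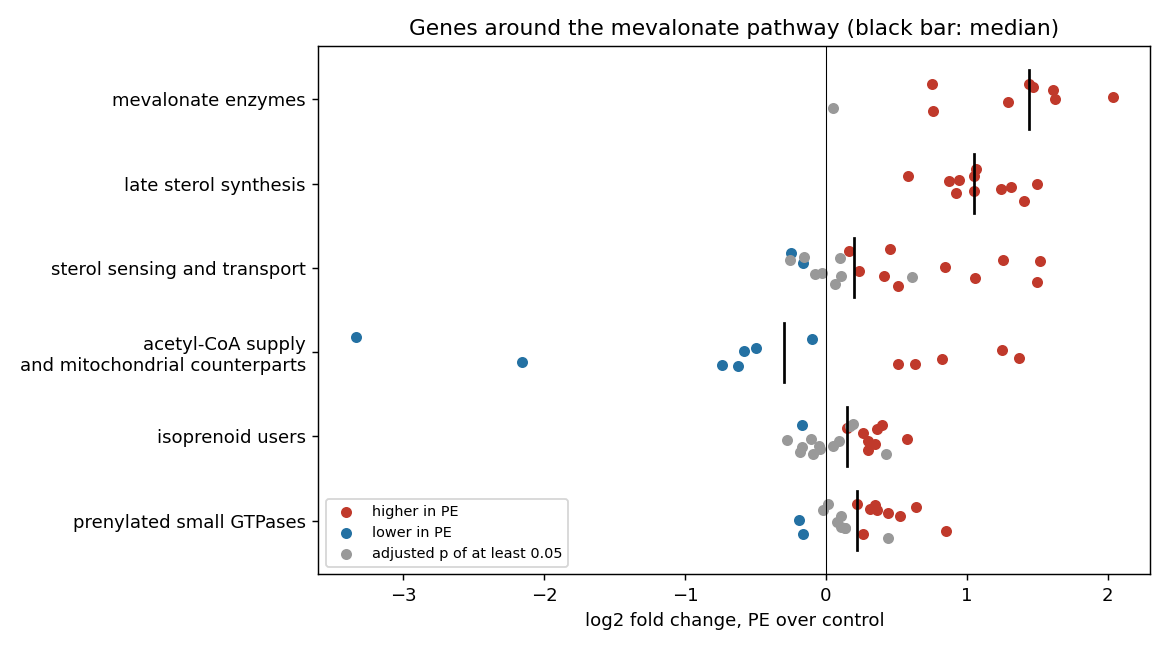
log2 fold change of PE over control for each tested gene of 6 lists, coloured by the call, with the list median as a black bar. The mevalonate enzymes and late sterol genes lie to the right of 0, with medians of 1.44 and 1.05, while the medians of the isoprenoid users and small GTPases are 0.15 and 0.22.

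The annotated ORFs of other genes whose profile over the 4 libraries lay nearest to the mean profile of the 9 enzymes were those of Fads2, Mmp16, Gadd45g, Lcn2, Pea15 and Cemip2. Likeness was the Euclidean distance between log2 CPM centred on each ORF's mean, over 8133 ORFs with a mean count of at least 100. Fads2, a fatty acid desaturase, was nearest at 0.0204, with 273 and 275 CPM in PE, against 119 and 116 CPM in control. Among the enzymes themselves Pmvk was nearest to their mean, at 0.0574, and Ggps1 farthest, at 1.16. With 4 libraries in 2 groups, this distance reflects little beyond the size of the PE difference.

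Library totals were 12117629 and 12537740 counts for PE and 11446574 and 13827599 for control, and TMM factors lay between 0.982 and 1.02. Replicates differed beyond counting noise (chi-square over its degrees of freedom 1.60 in PE and 1.61 in control) and each was kept as its own sample. Whether replicates were separate cultures is not stated. The spread behind every p-value is that between these libraries, and it may be technical. In the edgeR fit, the spread of each ORF was also drawn toward that of the other tested ORFs. The calls of cell type markers stand beside 21.4% of all tested ORFs called higher and 21.3% called lower. All 8 cardiomyocyte markers were tested, with 2 higher and 6 lower and a summed level of 65052 and 65428 CPM in PE, against 58409 and 58430 CPM in control. That sum turned on Nppa, the atrial natriuretic peptide, which had 17752 and 17870 CPM in PE, against 4973 and 4825 CPM in control. Without Nppa the sum was lower in PE, at 47300.2 and 47558 CPM, against 53436 and 53605 CPM in control. The largest fall within it was that of Myh6, at 2616 and 2691 CPM in PE, against 6568 and 6617 CPM in control. Myh6 held only 0.190 counts per P-site. Markers of other cells were mostly lower in PE: 5 of 7 tested fibroblast markers (summed 20832 and 21069 CPM in PE, against 34436 and 34705 CPM in control), 4 of 6 endothelial (129 and 136 CPM in PE, against 230 and 222 CPM in control), 4 of 5 smooth muscle (1280 and 1282 CPM in PE, against 1454 and 1462 CPM in control) and 5 of 6 macrophage markers (341 and 337 CPM in PE, against 499 and 476 CPM in control). Much of the fibroblast sum lay in Postn (mean 6594 CPM in PE, against 13714 CPM in control), Col1a1 (5442 against 8207) and Col3a1 (2348 against 7735). The fibroblast marker Dcn (4978 CPM in PE, against 3074 CPM in control) and the smooth muscle marker Cnn1 were higher, and no listed marker was at 0 counts. Col1a2 had 2 counts beside 158850 P-sites, so its count does not give its level. The part of these shifts in the rise of the mevalonate enzymes was not tested.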

How the data were processed

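Ribosome profiling libraries of neonatal rat cardiomyocytes, 2 with PE and 2 controls, were grouped by their titles. The submitters' processing notes name Rnor_6.0, STAR 2.4.2a, Bowtie 1.1.2 and cutadapt 2.0. For the ORF caller and counting program, names were not given in the sources used here. Raw footprint counts per ORF and an annotation of 18847 ORFs were deposited. Per the file headers, that annotation holds the authors' DESeq2 comparison (log2 fold changes, p-values, a Wald score, and a normalized mean signal, the last 2 unused), P-sites per frame and P-site RPKM, all deposited by the authors, and amino acid sequences, which were used only for identities.

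Counts were filtered with filterByExpr, scaled by TMM and tested with edgeR 4.0.16 in R 4.3.3 (robust quasi-likelihood, PE against control, no replicate term), with Benjamini-Hochberg adjustment over 12609 ORFs at 0.05. Standard errors are the log2 fold change over the square root of F. The pipeline was tested on simulated data in which all ORFs shared the same relative spread between libraries. Such data cannot show whether the spread between the real replicates is technical. DESeq2 1.42.0, other scalings, filters, a replicate block, removal of the length trend and left-out libraries were alternatives. Intervals of folds use the fit's own degrees of freedom, which include those borrowed from the other tested ORFs. Profile distances used log2 CPM with a pseudocount of 1. Residue identities come from Biopython 1.88 alignments (BLOSUM62, gap penalties 11 and 1), as a share of the shorter protein. Promoters are RefSeq's.

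The 9 enzymes and all lists were chosen with earlier results of these data known. Beyond the enzymes, named genes were, for each list the 4 lowest p-values in either direction, the 6 nearest profiles and other ORFs of the 9 genes. Some genes that this rule names are not reported here. Other genes are named as chosen after their values were seen: Scap, Pggt1b, Ctsb, Mmab, Wdr37, Acat2l1, Nppa, Dcn, Cnn1 and Col1a2.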

Additional observations from a re-analysis of the deposited data

How the results depend on the processing

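Of the 9 enzymes, 8 were higher in PE under each alternative scaling, filter and tool and under each left-out library (8 to 8), except that 6 were higher in the test against a 1.5-fold change, 6 of the 7 left after ORFs under 0.5 counts per P-site were removed, and 7 when the longest annotated ORF stood for each gene, where Fdps was lost. Across alternatives the log2 fold change of Idi1 ran over 1.98 to 2.06, Hmgcs1 1.57 to 1.65, Fdps 1.53 to 1.67, Fdft1 1.43 to 1.48, Acat2 1.40 to 1.46, Pmvk 1.20 to 1.31, Mvd 0.63 to 0.86 and Mvk 0.69 to 0.82. Ggps1 ranged over -0.013 (without PE replicate 1) to 0.11 (without PE replicate 2). Its upstream ORF was at 0.57 without PE replicate 1 and turned to -0.73 without PE replicate 2, -0.12 without control replicate 2 and -0.11 after removal of the length trend, and passed in none. The count of all called ORFs was 5386, 3446 with DESeq2, 1009 against a 1.5-fold change, and 4523 to 4754 with a library left out. The Fdps ORF of 2637 nt passed after removal of the length trend (log2 fold change 0.54, adjusted p = 0.031 in edgeR). The causes of these changes were not tested. The summed level of cardiomyocyte markers was 0.16 higher in PE on the log2 scale, and its difference turned to -0.17 with Nppa left out, an alternative added after seeing the data. With the replicate number as a block, 5435 ORFs were called and 8 of the 9 enzymes were higher. Same-numbered deviations correlated at 0.014 over 8282 ORFs, so the numbers are not taken to pair the samples. The fewest counts over the 4 libraries were the 784 of Mvk among the 9 enzymes, and the upstream ORF of Ggps1 had 50.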
